A study of Mus musculus with 32 samples.

Results

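Hearts of C57BL/6 mice taken after 5 days of exposure to an aggressor mouse and 1 day of rest were compared with hearts of control mice kept for the same time. The samples were chosen by their titles, which name the arm, the days of stress and the days of rest. They are 4 stressed and 4 control hearts, 8 of the 32 arrays of the series, and each array carries the Cy3-labelled total RNA of an individual mouse. Stressed mice spent 6 hours a day in a mesh box within an aggressor's cage, were put 3 to 5 times into direct contact with it, and each contact ended after 2 minutes or 10 attacks. Controls sat in the same kind of box in a large cage that held no aggressor, so both arms share the confinement. Age and sex are not among the labels used here. The series has 3 further conditions, each with 4 stressed and 4 control hearts of its own: 10 days of stress with 1 day of rest, 5 days with 10 days of rest, and 10 days with 42 days of rest.

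Repeated defeat by a dominant animal is a standard rodent model of severe psychological stress. It raises sympathetic and glucocorticoid output, both of which act on the heart. The heart holds cardiac muscle cells, which hardly divide in the adult, together with fibroblasts, endothelial cells and macrophages, which can. Fibroblasts lay down collagen when activated, and macrophages clear debris and release signals that fibroblasts respond to.

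Every value below is the log2 of the background-corrected probe signal less the 75th percentile of its own array, so 0 is the brightness of the probe at that percentile. A difference of 1 is a 2-fold change. Per-heart values are given in the order of replicates 1 to 4, the stressed hearts first. A gene rose or fell where limma's moderated test on all 32 arrays gave an adjusted p (Benjamini-Hochberg over all genes tested) below 0.05, and changes are written as stressed less control ± standard error. Of 27517 genes tested, 1456 (5.29%) rose and 2320 (8.43%) fell, which is 13.7% called. Every name on the array counts as a gene here, so these include 3907 intergenic regions. Of the 18306 with an official symbol, 1316 rose and 1461 fell. The change was at least 2-fold for 381 of those that rose and for 149 of those that fell. The 4 stressed values lay wholly above the 4 control values for 6.63% of the genes tested and wholly below for 15.7%.

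The split between rises and falls depended on how the arrays were scaled. The median change over all genes tested was -0.12 (-0.07 over those with an official symbol), and each list below is read against -0.12. Quantile normalisation moved the median to -0.03 and the split to 1912 higher and 1100 lower. The authors' own value table gave a median of -0.02, with 1856 higher and 1162 lower. A percentile taken over detected probes gave -0.07, with 1738 higher and 1436 lower. Normexp background correction gave -0.14, with 1454 higher and 3517 lower. Leaving out stressed heart 1 reduced the calls to 933 higher and 1244 lower, and leaving out control heart 2 to 1067 higher and 1343 lower.

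The arrays of the condition were of similar quality, with correlations between hearts of an arm of 0.9822 to 0.9934 and 28792 to 36525 probes well above background. The 75th percentile of the raw signal was 346.4 to 498.9 in the stressed hearts and 345.9 to 385.8 in the controls. All 8 arrays sat on a single slide, with both arms in each of its 2 rows (hearts 2 and 4 in row 1, hearts 1 and 3 in row 2), while the array's column on the slide and the arm cannot be told apart. Of 163 called genes named here, all 163 kept their direction within each row, where 2 hearts were set against 2, and 101 were still called in row 1 alone and 144 in row 2 alone. These genes were chosen for their calls on the same 8 hearts, so their direction within each row was largely fixed by that choice. The tissue label was checked on the sarcomere genes. All 35 were tested, and Myh6, the main cardiac myosin, averaged 9.95 in the stressed hearts and 10.22 in the controls. The probes of 34 of the 35 were well above background on all 8 arrays. Cardiac actin, Actc1, averaged 10.20 and 10.38. In whole tissue, more cells of a type and more RNA per cell cannot be told apart.

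**Figure D1:**
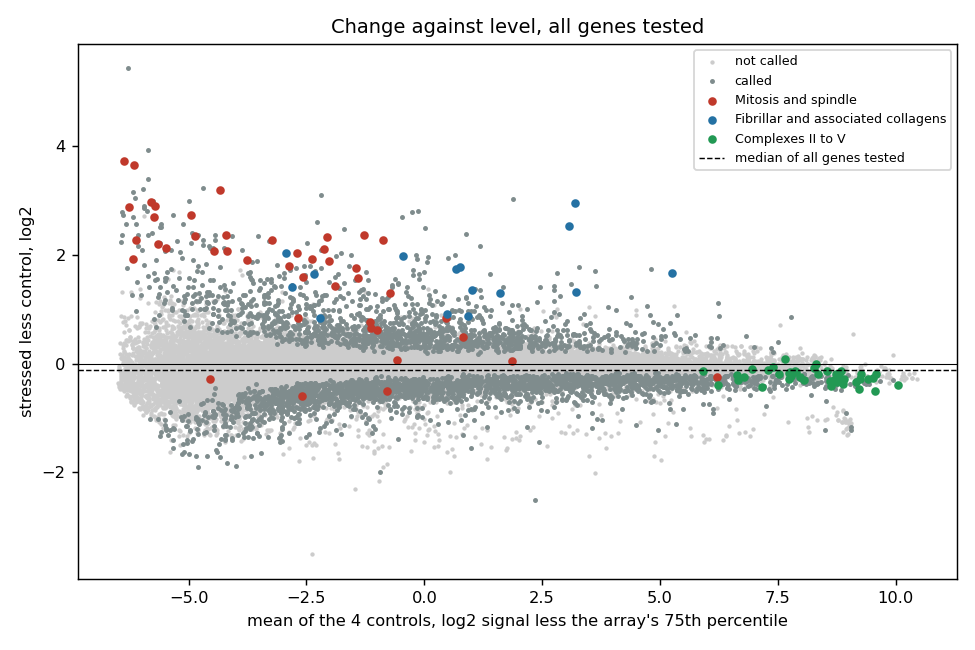
Stressed less control (log2) for each of the 27517 genes tested against its mean level in the 4 controls (log2 signal less the array's 75th percentile), with called genes in dark grey, the mitosis, collagen and respiratory complex II to V genes in colour, and the median of all genes at -0.12 as a dashed line. Most mitosis and collagen genes lie above the dashed line, and most respiratory genes lie just under it.

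Genes that cells switch on to divide rose together in the stressed hearts. Entry into the cell cycle needs licensing of replication origins and a supply of nucleotides, and passage through it needs cyclins, spindle motors, kinetochores and the checkpoint kinases that watch over them. Of 43 tested genes of mitosis and the spindle, 36 rose and 1 fell, with a median change of 1.92 against -0.12 over all genes (0.69 with normexp, another background correction, and 1.14 in the authors' value table). The median was 1.43 with the 11 genes not well above background in a whole arm set at a lower bound given by the background. All 8 kinases and checkpoint genes tested rose (median 2.13), as did 19 of 25 kinetochore and spindle genes and 9 of 10 genes of chromosome structure and mitotic exit. DNA replication followed with 21 of 32 genes higher and none lower (median 0.46), and cyclins, their kinases and inhibitors with 13 of 28 higher and none lower (median 0.32). No setting tried on whole arms, and no single heart left out, moved these counts of risen genes by more than 1.5 times.

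The promoters of 4 of these genes are shown because they hold one or both of the elements known for timing cell-cycle genes. These are the CCAAT box, bound by NF-Y, and the core of the cell cycle homology region (TTTGAA), bound by the DREAM complex that silences such genes in resting cells. The stretches end at the base before the annotated start in RefSeq's promoter table (GRCm38.p6) and run 5′ to 3′ along the gene's strand, with CCAAT and TTTGAA, or their reverse complements ATTGG and TTCAAA, in capitals. Cdc20 lies on the minus strand at chr4:118437344-118437463, Ccnb2 on the minus strand at chr9:70421555-70421744, Cdca3 on the plus strand at chr6:124830046-124830175 and Kif22 on the minus strand at chr7:127042421-127042670.
Cdc20: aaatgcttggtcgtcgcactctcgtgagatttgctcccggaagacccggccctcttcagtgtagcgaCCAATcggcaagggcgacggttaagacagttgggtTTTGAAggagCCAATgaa
Ccnb2: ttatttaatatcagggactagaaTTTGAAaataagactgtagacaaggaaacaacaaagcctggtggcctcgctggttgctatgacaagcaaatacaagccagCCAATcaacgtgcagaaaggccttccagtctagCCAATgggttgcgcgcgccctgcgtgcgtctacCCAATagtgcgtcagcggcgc
Cdca3: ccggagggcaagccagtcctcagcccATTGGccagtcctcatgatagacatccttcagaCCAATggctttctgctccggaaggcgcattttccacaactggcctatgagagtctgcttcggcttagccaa
Kif22: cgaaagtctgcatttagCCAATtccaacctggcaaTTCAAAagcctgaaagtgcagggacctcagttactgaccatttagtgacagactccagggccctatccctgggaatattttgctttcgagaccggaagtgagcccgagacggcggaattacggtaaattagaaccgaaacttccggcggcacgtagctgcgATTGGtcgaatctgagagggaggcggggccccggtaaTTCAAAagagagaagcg
Within 250 bases before the start, on either strand, CCAAT was present in 27 of the 35 promoters listed for the mitosis genes that rose (77.1%) and in 33.8% of all 32851 promoters of the table. TTTGAA was present in 12 of those 35 (34.3%) and in 16% of all promoters. The 35 promoters belong to 31 of the 36 genes, and the matches are a description of these letters only.

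Among the checkpoint and kinase genes, Birc5 (survivin), a subunit of the chromosomal passenger complex, read 1.46, 0.92, 1.14 and 0.81 against -1.29, -1.25, -1.25 and -1.33. The stressed hearts stood clear of every control, and the controls were closely grouped. Its change was 2.37 ± 0.20 (5.16-fold, adjusted p = 9.14e-08), measured by a probe at chr11:117716978-117717037 of mm9, the build of the array's annotation. Plk1, the kinase that drives mitotic entry, read 0.15, -0.21, -0.10 and -0.45 against -1.99, -1.97, -2.16 and -2.01, a change of 1.88 ± 0.18 (adjusted p = 1.84e-07). Mki67, the antigen counted in tissue sections as a sign of dividing cells, read 1.78, 1.27, 1.39 and 1.15 against -0.83, -0.98, -0.76 and -0.92, a change of 2.27 ± 0.25 (adjusted p = 1.2e-06). In both genes all 4 stressed hearts lay above all 4 controls, with stressed heart 1 highest and stressed heart 4 lowest. Cdca8, a further passenger complex subunit, changed by 2.10 ± 0.22, and Cdc20, which activates the ubiquitin ligase that ends mitosis, by 1.57 ± 0.17.

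Spindle genes rose as well. Kif22, a chromosome-binding motor, read 0.02, -0.36, -0.32 and -0.41 against -2.55, -2.29, -2.53 and -2.57 and changed by 2.22 ± 0.17 (adjusted p = 1.3e-08). Cdca3, which triggers degradation of the mitosis inhibitor Wee1, read -0.89, -1.41, -0.88 and -1.34 against -4.79, -3.98, -4.28 and -4.26 and changed by 3.20 ± 0.28 (adjusted p = 1.13e-07), although only 2 of its 4 control signals were well above background. Anln, which organises the ring that pinches dividing cells apart, changed by 1.92 ± 0.21, and the centromere protein gene Cenpk by 1.90 ± 0.18. The member that fell was Spc24, a kinetochore subunit, at -0.50 ± 0.11 (adjusted p = 0.00211), named because it was the lone fall and so chosen after its value was seen.

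Many of the largest changes came from genes whose signal was not well above background on any control array, and for these only a bound can be given. The bound sets the mean of the stressed hearts against, for each control array, the higher of the probe's own value and the dimmest signal still well above background. Bub1, the spindle checkpoint kinase, read -2.87, -3.47, -3.41 and -3.73 against -5.76, -6.66, -5.77 and -6.84 and was at least 1.79-fold higher by that bound, with a measured change of 2.88 ± 0.35 (adjusted p = 5.36e-06). Fanci, a DNA crosslink repair gene, was at least 1.45-fold higher, and its measured values of -3.46, -3.80, -3.49 and -3.92 against -5.86, -6.75, -6.18 and -6.81 did not overlap. Ska1, a kinetochore gene, was at least 2.99-fold higher, Cenph at least 2.31-fold, Spag5 at least 3.07-fold and Ckap2 at least 2.62-fold. Pbk and Melk, kinases of dividing cells, were at least 3.24-fold and at least 2.62-fold higher, and the Myc-network factor Mxd3 at least 2.18-fold. Neil3, a DNA glycosylase, was at least 2.17-fold higher and Dtl, which marks replication proteins for degradation, at least 2.74-fold. Bub1b, Aspm and Pimreg had 1 control array above background each, and their measured changes were 2.35 ± 0.25, 2.99 ± 0.39 and 3.22 ± 0.34. The size of such changes depended on the background correction: with normexp, Bub1 changed by 0.46 (adjusted p = 0.00843) and Fanci by 0.38 (adjusted p = 0.0246), and both were still called.

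Replication genes changed less. Mcm5, a subunit of the helicase that opens origins, read 0.22, -0.04, 0.13 and -0.29 against -1.31, -1.48, -1.34 and -1.29 and changed by 1.36 ± 0.19 (adjusted p = 2.19e-05). Its partners Mcm3 and Mcm6 changed by 1.24 ± 0.19 and 0.74 ± 0.13. Genes of nucleotide supply rose with them. Tk1, thymidine kinase, read 0.16, -0.01, 0.10 and -0.02 against -1.30, -1.39, -1.19 and -1.37, a change of 1.37 ± 0.14 (adjusted p = 4.95e-07), and Rrm2, the regulated subunit of ribonucleotide reductase, changed by 1.28 ± 0.16. Pole2, a subunit of DNA polymerase epsilon, changed by 1.54 ± 0.23. With normexp and in the authors' table the Pole2 change was 0.35 and 0.78. Uhrf1, which copies DNA methylation onto new strands, changed by 1.79 ± 0.22 by its brightest probe, but its probes ranged from -0.10 to 1.79 and their mean gave 0.85 (adjusted p = 0.0734). The replication list mean was 0.65, 0.53, 0.74 and 0.45 in stressed hearts 1 to 4 and -0.05 to 0.08 in the controls, a difference of 0.52 in slide row 1 and 0.66 in slide row 2.

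Of the cyclins, Ccnb2 read 0.49, 0.02, 0.02 and -0.11 against -1.92, -1.82, -1.82 and -1.93 and changed by 1.97 ± 0.25 (adjusted p = 8.72e-06), Ccnb1 by 2.34 ± 0.31 and Ccna2 by 2.09 ± 0.27. With normexp the changes were 0.86 for Ccnb1, 0.73 for E2f1, 1.42 for Cdca3 and 0.86 for Cenpk, all still called, and in the authors' table they were 1.46 for Ccnb1 and 2.02 for Cdca3. These are the cyclins of the DNA synthesis and mitotic phases. E2f1, the factor that switches on replication genes, changed by 1.20 ± 0.16, and Cks2, a small partner of cyclin-dependent kinases, was at least 3.18-fold higher. The list mean for mitosis and spindle was 2.04, 1.65, 1.67 and 1.46 in stressed hearts 1 to 4, relative to the mean of the controls, which themselves stayed between -0.04 and 0.03. The difference between the arms was 1.53 in slide row 1 and 1.88 in slide row 2. Of the 36 risen mitosis genes, 4 entered the test through the stressed arm of this condition alone, so those genes had to be high there.

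**Figure D2:**
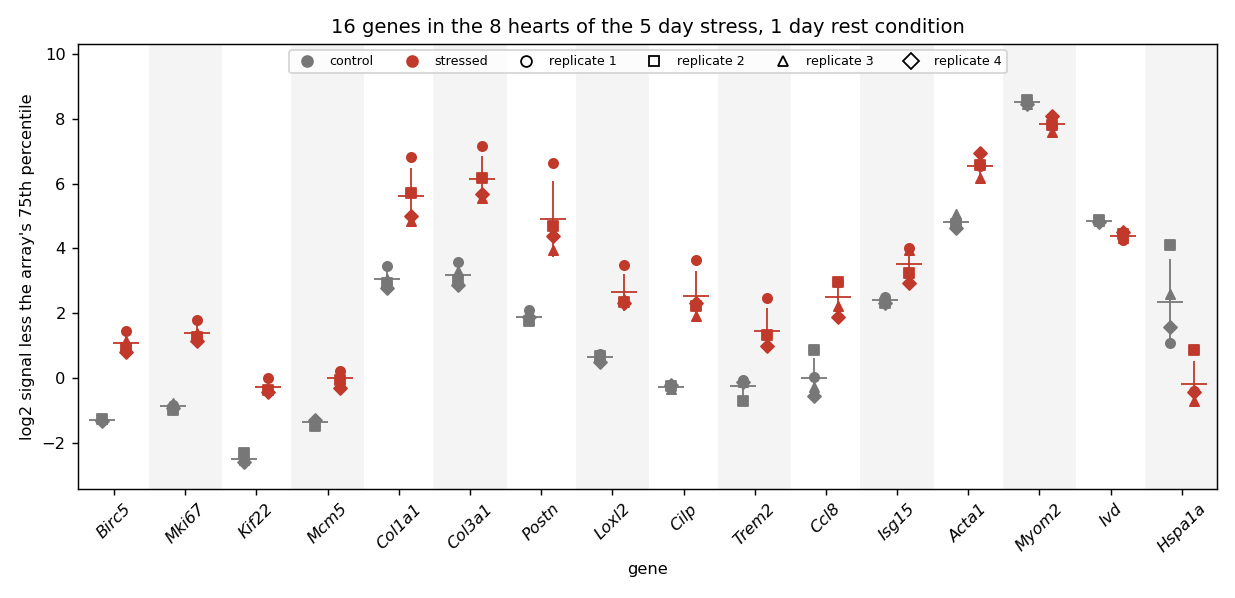
Level of 16 genes in each of the 8 hearts (log2 signal less the array's 75th percentile), with controls in grey, stressed hearts in red, a symbol for each replicate number, and the arm's mean with its SD (n = 4) as a line with a bar. Stressed hearts lie above all controls for the first 13 genes and below all controls for Myom2, Ivd and Hspa1a. Stressed heart 1 (circle) is the highest stressed heart for each of the first 13 genes except Acta1.

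Collagen and matrix genes formed the other large rise. The heart's matrix is built mainly from the fibrillar collagens I and III, which fibroblasts secrete as procollagens, trim, and crosslink with lysyl oxidases. All 6 fibrillar chains tested rose (median 1.73), and 8 of 9 fibril-associated, beaded and membrane chains did (median 1.35). No chain fell. Basement membrane genes rose in 9 of 15 cases (median 0.45), glycoproteins in 14 of 20 (median 0.96), proteoglycans in 4 of 11 (median 0.24), and all 5 lysyl oxidases rose (median 1.52). Of the 5 lysyl oxidases, 1 entered the test through the stressed arm of this condition alone, so it had to be high there. Of the hydroxylases, chaperones and peptidases that process collagen, 5 of 18 rose.

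Col3a1, a chain of collagen III, had the largest change of the chains. It read 7.15, 6.18, 5.55 and 5.69 against 3.57, 3.03, 3.29 and 2.88, which is 2.95 ± 0.32 (7.72-fold, adjusted p = 1.2e-06), by a probe at chr1:45405589-45405648 (mm9). Col1a1, of collagen I, read 6.81, 5.72, 4.86 and 5.00 against 3.47, 2.93, 3.07 and 2.78, a change of 2.53 ± 0.30 (5.79-fold, adjusted p = 3.78e-06), by a probe at chr11:94813115-94813174 (mm9). The arms were far apart in both genes, and stressed heart 1 stood highest in each. Col1a2 changed by 1.67 ± 0.22, Col5a1 by 1.78 ± 0.25, and the beaded-filament chains Col6a1 and Col6a2 by 1.31 ± 0.16 and 1.35 ± 0.16. Col8a1, a short-chain collagen, changed by 1.98 ± 0.30 and Col14a1, which coats fibrils, by 1.74 ± 0.23. The spread among stressed hearts was wide: the collagen list mean was 2.60, 1.54, 1.10 and 1.24 in stressed hearts 1 to 4 and -0.09 to 0.23 in the controls. The difference between the arms was 1.48 in slide row 1 and 1.76 in slide row 2, and leaving out any single heart left the count of risen collagens within 1.5 times.

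Cthrc1, a secreted protein of activated fibroblasts, read 1.61, -0.32, -2.62 and -2.14 against -5.75, -6.64, -6.07 and -6.71, so each stressed heart exceeded each control, but the stressed hearts differed widely and no control signal was well above background. The rise was at least 10.1-fold by the bound described above, with a measured change of 5.43 ± 0.75 (adjusted p = 2.57e-05) that was 2.11 with normexp and 2.77 in the authors' table. Postn (periostin), a matricellular protein of injured heart, was measured well above background in every heart. It read 6.62, 4.69, 3.94 and 4.37 against 2.10, 1.76, 1.81 and 1.89 and changed by 3.02 ± 0.42 (8.09-fold, adjusted p = 2.69e-05). Fbn1 (fibrillin 1), the scaffold of microfibrils, changed by 1.96 ± 0.23, Thbs4 (thrombospondin 4) by 2.38 ± 0.30, the microfibril protein gene Mfap5 by 1.46 ± 0.20 and Emilin1, an elastic fibre gene, by 1.26 ± 0.14 (0.73 with normexp). The proteoglycans Lum (lumican) and Vcan (versican) changed by 1.04 ± 0.13 and 1.19 ± 0.15, and the mean of its probes gave 0.72 for Vcan. Frem1, which anchors epithelium to its basement membrane during development, was at least 2.18-fold higher.

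Crosslinking genes rose with the chains. Loxl2 read 3.50, 2.34, 2.45 and 2.31 against 0.75, 0.67, 0.72 and 0.51 and changed by 1.99 ± 0.21 (adjusted p = 7.87e-07) by its brightest probe, and its probes ranged from -0.17 to 2.12. Loxl1 changed by 1.12 ± 0.17, and Lox was at least 2.79-fold higher, with stressed heart 1 at -0.96 and the other stressed hearts at -3.66 to -2.80. Adamts2, which trims the amino end of procollagen, changed by 1.36 ± 0.17 (adjusted p = 5.4e-06). The basement membrane chains Col4a1, Col4a2 and Lamb1 changed by 0.95 ± 0.14, 0.84 ± 0.11 and 0.53 ± 0.09. A laminin chain went the other way, Lamb2 at -0.28 ± 0.09 (adjusted p = 0.0359), but its arms overlapped and the call was lost without stressed heart 3 or 4 or without control heart 1, 2 or 4. P4ha3, a prolyl hydroxylase, fell by 0.37 ± 0.11 (adjusted p = 0.0222) by its brightest probe, a call lost without stressed heart 3 or control heart 3 and reversed to 0.64 (adjusted p = 0.0209) by the mean of its probes.

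Proteases and their inhibitors were mixed. Of 26 tested, 9 rose and 1 fell, with 5 risen when only these 8 arrays were fitted. Timp1, a metalloproteinase inhibitor, read 3.71, 2.87, 2.56 and 1.53 against 0.05, -0.17, -0.05 and -0.35 and changed by 2.80 ± 0.32 (6.95-fold, adjusted p = 2.63e-06). Its relative Timp4, the form most abundant in heart, read 1.30, 1.01, 0.67 and 0.99 against 2.94, 2.52, 2.06 and 2.19 and fell by 1.44 ± 0.35 (adjusted p = 0.00707). The arms did not overlap for either inhibitor. Ctsk, a collagen-cleaving cathepsin, changed by 1.16 ± 0.18 (adjusted p = 0.000133).

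Signals that act on fibroblasts moved in a few members. TGF-beta ligands drive matrix production, are stored in the matrix by latent binding proteins, and act through Smad factors, with the inhibitory Smads and Id genes among their targets. Of the 49 genes of the TGF-beta and BMP list, 8 rose and 2 fell (median 0.10), and 7 of the rises lay in the ligand and latency group of 23. Without control heart 2 or 4 a single fall was left, and without stressed heart 3 or control heart 1 or 3 none was. Ltbp2, a latent binding protein, read 4.73, 3.12, 2.39 and 3.13 against 1.15, 1.30, 1.15 and 1.11 and changed by 2.16 ± 0.34 (adjusted p = 0.000119). Tgfb2 read 2.43, 1.42, 1.38 and 1.65 against 0.71, 0.78, 0.72 and 0.72 and changed by 0.99 ± 0.16 (adjusted p = 0.00024), and Fstl1, a secreted follistatin-like protein, changed by 1.70 ± 0.21 (adjusted p = 4.62e-06). None of the 16 receptors and Smads rose. Smad6, an inhibitory Smad, stood at -0.47 ± 0.14 (adjusted p = 0.0214), a call lost without stressed heart 3 or without control heart 1 or 3, and Id3 at -0.28 ± 0.09 (adjusted p = 0.043), a call lost without stressed heart 3 or 4 or without any single control. With only these 8 arrays fitted, 4 of the list rose.

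In the Wnt and insulin-like growth factor list 8 of 29 rose and 1 fell (4 and 2 with only these 8 arrays fitted, and 2 fell without stressed heart 2). Frzb, a secreted Wnt antagonist, changed by 1.5 ± 0.18 (adjusted p = 5.27e-06), Ccn5, a matricellular protein, by 1.11 ± 0.15 (adjusted p = 1.69e-05), and Igfbp7, which binds growth factors, by 1.33 ± 0.14 (adjusted p = 6.41e-07). Wif1, another Wnt inhibitor, fell by 0.64 ± 0.16 (adjusted p = 0.00746). These secreted Wnt antagonists moved in both directions. Among integrins 5 of 17 rose, of which the beta-like gene Itgbl1 changed by 1.22 ± 0.16 (adjusted p = 1.69e-05). That count was 2 without stressed heart 1 and 3 without control heart 1, 2 or 4, and 1 with only these 8 arrays fitted.

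The fibroblast itself was followed by a list of markers. That list overlaps the matrix glycoprotein and proteoglycan list, since both hold Cthrc1, so the counts of these lists are not independent. Of 22 markers 12 rose and none fell (median 0.55), with 7 of 10 markers of activated fibroblasts (median 1.27) and 5 of 12 of resident fibroblasts (median 0.32). Cilp, a secreted protein of cardiac fibroblasts, read 3.64, 2.23, 1.91 and 2.31 against -0.25, -0.25, -0.33 and -0.21, a change of 2.78 ± 0.32 (6.88-fold, adjusted p = 2.66e-06). Meox1, a homeobox factor of activated fibroblasts, read 3.1, 2.10, 2.28 and 2.25 against 1.01, 0.91, 1.25 and 1.10 and changed by 1.37 ± 0.17 (adjusted p = 9.19e-06). All 4 stressed hearts exceeded the controls for both genes. Vim (vimentin), the intermediate filament of mesenchymal cells, changed by 0.90 ± 0.15 and Cd248 (endosialin), a surface protein of stromal cells, by 0.80 ± 0.12. The difference in list mean was 0.92 in slide row 1 and 1.09 in slide row 2. Cytoskeletal genes rose beside them, 17 of 37 (10 with only these 8 arrays fitted), with 8 of 15 genes of actin dynamics and 8 of 13 annexins and S100 proteins. S100a4, a calcium-binding protein of motile cells, changed by 0.98 ± 0.14, Anxa1 (annexin A1) by 0.62 ± 0.12, the actin capper Capg by 0.62 ± 0.10 and Stmn1 (stathmin), which frees tubulin, by 0.61 ± 0.11. The muscle form S100a1 was the member that fell, at -0.30 ± 0.10 (adjusted p = 0.0404), a call lost without stressed heart 1, 2 or 3 or without any single control, and under each rescaling and background correction tried.

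**Figure D3:**
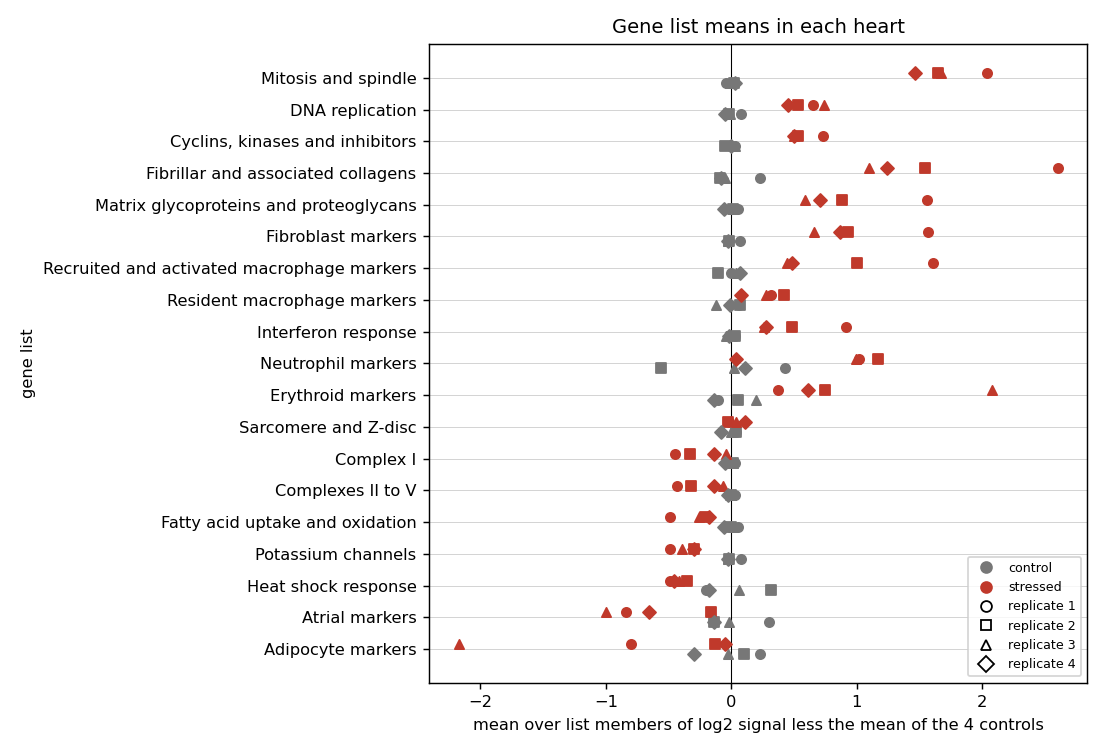
Mean over the tested members of 19 gene lists in each heart (log2 signal less the mean of the 4 controls), with controls in grey, stressed hearts in red and a symbol for each replicate number. Mitosis, collagen and fibroblast means lie above every control in all 4 stressed hearts, stressed heart 1 (circle) is highest for collagens at 2.60, and stressed heart 3 (triangle) stands apart for erythroid markers at 2.08 and adipocyte markers at -2.17.

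Many macrophage genes rose as well. Resident heart macrophages self-renew and clear debris, while recruited ones derive from monocytes and carry Trem2 and lysosomal genes when they take up lipid and dead cells. Among resident markers 8 of 16 rose and none was called lower (median 0.30), while 10 were measured higher and 6 lower, down to -0.56. Mrc1 (CD206), the mannose receptor, read 2.30, 2.07, 2.04 and 1.75 against 1.35, 1.08, 1.16 and 1.24, a change of 0.83 ± 0.15 (adjusted p = 0.000552). Stab1, a scavenger receptor, changed by 0.61 ± 0.10, Adgre1 (F4/80) by 0.92 ± 0.21, the fractalkine receptor Cx3cr1 by 1.08 ± 0.24 and the complement subunit C1qc by 0.69 ± 0.12. The arms did not overlap for any of these 5 genes, which were picked as called members of smallest p. Over the list the stressed arm lay wholly above for 7 of 16, against 6.63% of all genes. The list itself was chosen with earlier results of these data known. In slide row 1 alone, 2 hearts against 2, limma no longer called Mrc1, Adgre1 or Cx3cr1 (adjusted p of 0.0842, 0.165 and 0.206). Leaving out any single heart kept the count of risen resident markers within 1.5 times.

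Markers of recruited and activated macrophages rose in 12 of 20 cases (median 0.69), but that count rested partly on single hearts: it was 7 without stressed heart 1, 7 without control heart 2 and 4 with only these 8 arrays fitted. Their list mean was 1.61, 1.0, 0.44 and 0.48 in stressed hearts 1 to 4, highest in heart 1. Trem2 read 2.48, 1.32, 1.09 and 0.98 against -0.06, -0.71, -0.12 and -0.13 and changed by 1.72 ± 0.23 (3.3-fold, adjusted p = 2e-05). Ms4a7, a membrane protein of monocyte-derived macrophages, read 3.64, 2.40, 1.90 and 1.85 against 0.38, 0.58, 0.51 and 0.57 and changed by 1.94 ± 0.29 (adjusted p = 5.55e-05). Cd68, a lysosomal glycoprotein of phagocytes, changed by 1.17 ± 0.20 (adjusted p = 0.000345), or 0.59 with normexp. Each of the 3 stayed called without any single heart. Lysosomal genes rose in 12 of 24 cases (7 without stressed heart 1 and 4 with only these 8 arrays fitted).

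Some secreted inflammatory genes rose. Of 44 chemokines and receptors 13 rose and 3 fell, with 8 risen and 0 fallen without stressed heart 1, 8 and 0 without control heart 2, and 1 fallen without stressed heart 3. With only these 8 arrays fitted 7 rose, and quantile normalised or the authors' values left 1 fall. Ccl8, a monocyte attractant, read 2.96, 2.95, 2.22 and 1.89 against 0.03, 0.87, -0.28 and -0.55, a change of 2.49 ± 0.32 (5.6-fold, adjusted p = 1.04e-05). Ackr4, a receptor that removes chemokines, read 1.64, 1.11, 1.43 and 1.29 against 0.28, -0.22, -0.51 and -0.56 and changed by 1.62 ± 0.24 (adjusted p = 6.52e-05). The acute phase genes Serpina3n, a protease inhibitor, and Lcn2 (lipocalin 2), which sequesters bacterial iron carriers, changed by 2.48 ± 0.25 and 1.87 ± 0.22. The arms did not overlap for either, while 4 of 24 acute phase genes rose in all (2 without stressed heart 1 or control heart 1). In the complement list 6 of 22 rose and 1 fell (2 risen without stressed heart 1, 3 without stressed heart 2 or control heart 3, and 2 fallen without stressed heart 4), with C3ar1, the receptor of the C3a fragment, at 0.88 ± 0.12 (0.51 with normexp).

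Interferon-stimulated genes, which interferons switch on to block viruses, rose in 15 of 30 cases (median 0.46) and fell in 1, a fall absent without stressed heart 3 or control heart 3, in the authors' table or with only these 8 arrays fitted. The promoters of 3 of them are shown because they hold the interferon-stimulated response element, searched here as GAAANNGAAA on either strand and given in capitals. The stretches end at the base before the annotated start (RefSeq promoter table, GRCm38.p6), with Isg15 on the minus strand at chr4:156200819-156200928, Oas1a on the minus strand at chr5:120907526-120907585 and Ifit3 on the plus strand at chr19:34583349-34583528.
Isg15: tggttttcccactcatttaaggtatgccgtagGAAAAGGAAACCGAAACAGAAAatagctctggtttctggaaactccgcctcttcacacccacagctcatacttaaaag
Oas1a: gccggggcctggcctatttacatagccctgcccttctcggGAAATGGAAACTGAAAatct
Ifit3: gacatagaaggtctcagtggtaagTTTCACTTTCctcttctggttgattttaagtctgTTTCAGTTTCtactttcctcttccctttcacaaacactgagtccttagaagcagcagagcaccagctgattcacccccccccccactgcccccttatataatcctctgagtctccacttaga
The Isg15 stretch holds 3 overlapping matches and the Oas1a stretch 2 overlapping ones. Within 250 bases before the start, the element was present in 5 of 12 promoters (41.7%) listed for 11 of the 15 risen genes and in 2.98% of all promoters of the table.

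Isg15, a ubiquitin-like modifier, read 4.02, 3.24, 3.95 and 2.92 against 2.50, 2.32, 2.44 and 2.33 and changed by 1.14 ± 0.20 (adjusted p = 0.000451). Hearts 1 and 3 were the highest of the stressed hearts, and the row holding hearts 2 and 4 gave 0.76 (adjusted p = 0.113). Oas1a, which makes the activator of RNase L, read 2.70, 1.85, 1.82 and 1.45 against 1.04, 1.05, 0.89 and 0.97 and changed by 0.97 ± 0.21 (adjusted p = 0.00275), and its relative Oasl2 changed by 0.76 ± 0.13 (adjusted p = 0.000304). Ifit3, which binds foreign RNA with its partners, changed by 0.97 ± 0.18 and Ifitm3, which blocks viral entry, by 0.45 ± 0.08. The arms did not overlap for any of these 5, which were picked among called members. Over the list the stressed arm lay wholly above for 16 of 30 genes, against 6.63% of all genes, and wholly below for 1. This list was likewise chosen with earlier results of these data known. In slide row 1 alone Oas1a and Oasl2 lost their calls too (limma, adjusted p of 0.232 and 0.0701). The list mean was 0.91, 0.48, 0.26 and 0.28 in stressed hearts 1 to 4 and differed by 0.38 in slide row 1 and 0.59 in slide row 2.

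Markers of other cell types were uneven between hearts. Erythroid markers rose in 5 of 13 cases (median 0.68), with a list mean of 0.37, 0.75, 2.08 and 0.61 in stressed hearts 1 to 4, and stressed heart 3 stood apart. Ahsp, the chaperone of alpha globin, read -0.49, -0.39, 3.07 and -0.90 against -2.75, -2.12, -1.64 and -2.60, a change of 2.60 ± 0.63 (adjusted p = 0.00702) that was 1.68 without that heart and was lost when only these 8 arrays were fitted. Slc4a1, the red cell anion exchanger, changed by 1.92 ± 0.48 (adjusted p = 0.00914) and was lost in the same fit. The erythroid count was 2 without stressed heart 3, 3 without control heart 1, 2 without control heart 4 and 0 with only these 8 arrays fitted. Of neutrophil markers 4 of 9 rose, but the median was 0.06, with 5 measured higher and 4 lower, and the list means of the arms overlapped. The count was 2 without stressed heart 1, 1 without stressed heart 3 and 1 without control heart 2. It was 2 with normexp or with only these 8 arrays fitted. S100a8 and S100a9, the calprotectin subunits, changed by 2.08 ± 0.57 and 1.99 ± 0.58, and both calls were lost when any one of those 3 hearts was left out. The S100a8 call was lost with normexp too (0.93, adjusted p = 0.0547), and the S100a9 call with only these 8 arrays fitted (1.99, adjusted p = 0.052).

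Other blood and vessel lists showed few calls. Among T and NK cell markers 0 rose and 2 of 14 fell (1 without stressed heart 1 or 3 or control heart 3 or 4, 0 without control heart 2, and 4 with normexp or with only these 8 arrays fitted). Of 7 B cell and 14 platelet markers limma called none, and 0 and 3 had an unadjusted p below 0.05. Blood and lymphatic endothelial markers rose in 3 of 26 cases and fell in 1, and smooth muscle and pericyte markers in 1 and 1 of 16. Under quantile normalisation 5 endothelial markers rose. The endothelial fall was absent with normexp, under quantile normalisation, in the authors' table or without stressed heart 1, with 3 and 2 falls without stressed heart 3 or 4. The smooth muscle rises numbered 3 with normexp or in the authors' table and 2 under quantile normalisation, and neither call was made with only these 8 arrays fitted. The smooth muscle rise was absent without stressed heart 1 or 4 or control heart 2 or 4, with 2 rises without stressed heart 2 or 3, and the fall was absent without stressed heart 1, with 2 falls without stressed heart 2 or 4. Their list means stayed within -0.09 to 0.12 and -0.04 to 0.06 in the stressed hearts. Of 11 epicardial and mesothelial markers 1 rose (2 without stressed heart 3), Aldh1a2, which makes retinoic acid, with 2.02, 1.41, 1.34 and 0.98 against -0.03, 0.57, 0.47 and 0.40 and a change of 1.09 ± 0.19 (adjusted p = 0.000294). Schwann cell and neuron markers fell in 3 of 10 cases (median -0.36; 6 with normexp), and Kcna1, an axonal potassium channel, changed by -1.0 ± 0.18 (adjusted p = 0.000403).

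Markers of tissue dissected with the heart were also checked. Adipocyte markers had list means of -0.80, -0.13, -2.17 and -0.05 in stressed hearts 1 to 4 and -0.30 to 0.23 in the controls, and the difference was 0.01 in slide row 1 and -1.58 in slide row 2. Of 15 markers 2 fell, and 1 without stressed heart 1 or 3 or control heart 2 or 3, or in quantile normalised or the authors' values. The clearest was Plin4, a lipid droplet coat protein that muscle also makes, at -0.75 ± 0.12 (adjusted p = 0.000145). Atrial markers fell in 4 of 15 cases (8 without stressed heart 2 and 2 with only these 8 arrays fitted), with a list mean of -0.84, -0.16, -1.0 and -0.66 in stressed hearts 1 to 4 and -0.14 to 0.30 in the controls. Kcnj3, the acetylcholine-gated channel subunit of atrium, read -1.40, -0.77, -1.39 and -0.78 against 0.05, -0.19, -0.09 and -0.31 and changed by -0.95 ± 0.15 (adjusted p = 0.000162). Skeletal muscle markers fell in 4 of 10 cases (2 in the authors' table or with only these 8 arrays fitted), among them Cacna1s, the skeletal calcium channel, at -0.80 ± 0.12. Of the 5 lung and thymus markers tested limma called none, with 0 at an unadjusted p below 0.05, and Sftpc, a lung surfactant gene, read -6.79, -5.46, -4.61 and -6.72 against -5.90, -4.13, -3.42 and 3.94, high in control heart 4 alone. How far a different share of atrium, fat or blood contributed to the changes of other genes was not tested.

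Cardiac muscle genes changed little as a group. Of 35 sarcomere and Z-disc genes 3 rose and 3 fell (median -0.03), with 1 and 1 without stressed heart 1, 5 and 6 without stressed heart 3, and 5 fallen without stressed heart 4. With normexp, quantile normalised or the authors' values 5 rose, and with only these 8 arrays fitted 1 fell. Myom2, which links thick filaments at the M-band, read 7.77, 7.81, 7.59 and 8.09 against 8.56, 8.57, 8.44 and 8.46 and fell by 0.69 ± 0.10 (adjusted p = 4.73e-05). Genes of the stressed or fetal myocyte rose in 7 of 19 cases and fell in 1 (4 risen without stressed heart 1, 3 fallen without stressed heart 2). Acta1, the skeletal actin of the fetal heart, read 6.53, 6.56, 6.17 and 6.94 against 4.80, 4.74, 5.05 and 4.64 and changed by 1.74 ± 0.28 (3.34-fold, adjusted p = 0.000132). Xirp2, an actin-binding protein of the intercalated disc, changed by 0.91 ± 0.17 (adjusted p = 0.000844). Sprr1a, a small proline-rich protein of strained myocytes, read 3.77, 0.89, -0.47 and -0.55 against -2.39, -2.33, -1.90 and -2.14: stressed heart 1 far exceeded the others, and its change of 3.1 ± 0.56 (adjusted p = 0.000527) was lost when only these 8 arrays were fitted (3.1, adjusted p = 0.0611).

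Genes of mitochondrial energy production leaned downward, and their counts depended on scaling and on stressed heart 1. The heart draws most of its energy from fatty acid oxidation and the respiratory chain. Complex I genes fell in 15 of 36 cases (median -0.26) and complexes II to V in 17 of 42 (median -0.25), but quantile normalisation left 3 and 1, and the authors' own values left 2 and 1. Without stressed heart 1 the counts were 6 and 4, and without stressed heart 2 they were 9 and 9. With only these 8 arrays fitted 4 and 4 fell. Leaving out a control heart left 10 or 11 falls in complexes II to V. The complex I list mean was -0.45, -0.33, -0.04 and -0.14 in stressed hearts 1 to 4 and differed by -0.22 in slide row 1 and -0.26 in slide row 2. Ndufs1, the largest complex I subunit, read 6.71, 6.89, 6.82 and 6.99 against 7.31, 7.33, 7.37 and 7.23 and changed by -0.46 ± 0.08 (adjusted p = 0.000305). Cox7a1, the muscle form of a complex IV subunit, changed by -0.50 ± 0.09 (adjusted p = 0.000664), and both stayed called under every scaling. Cox4i1, another complex IV subunit, changed by -0.47 ± 0.07 but reached only -0.21 (adjusted p = 0.106) under quantile normalisation and -0.24 (adjusted p = 0.0838) in the authors' table.

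Fuel-use genes fell in part, in counts that also depended on scaling and on the arrays fitted. Fatty acid uptake and oxidation genes fell in 13 of 33 cases (median -0.27; 6 under quantile normalisation, 7 in the authors' value table, 6 without stressed heart 1), and citric acid cycle genes in 11 of 28 (2 under quantile normalisation and in the authors' table, 6 without stressed heart 1 and 7 without control heart 2). Of branched-chain amino acid and ketone genes 12 of 22 fell (median -0.32), 8 under quantile normalisation, 10 in the authors' table and 7 without stressed heart 1. With only these 8 arrays fitted the falls numbered 5 in fatty acid use, 6 in the citric acid cycle and 5 in branched-chain and ketone use. Ivd, which oxidises a leucine product, read 4.25, 4.45, 4.33 and 4.52 against 4.89, 4.89, 4.84 and 4.80 and changed by -0.47 ± 0.07 (adjusted p = 0.000113). Bckdha, of the dehydrogenase that commits these amino acids to breakdown, changed by -0.52 ± 0.09, Idh3g, of isocitrate dehydrogenase, by -0.47 ± 0.07, and Acacb, which makes the malonyl-CoA that restrains fatty acid entry, by -0.52 ± 0.08. Cs, citrate synthase, changed by -0.35 ± 0.06 and was lost under quantile normalisation (-0.11, adjusted p = 0.474) and in the authors' table (-0.16, adjusted p = 0.199). Ldhd, mitochondrial D-lactate dehydrogenase, changed by -0.59 ± 0.08, the carboxylesterase Ces1d by -1.02 ± 0.15, and Esrrb, an orphan receptor related to regulators of mitochondrial genes, by -0.38 ± 0.08. In glycolysis 2 of 27 rose and 6 fell, but 4 rose and 1 fell under quantile normalisation, 4 rose and 2 fell in the authors' table, and 1 rose and 1 fell with only these 8 arrays fitted. Pfkp, a phosphofructokinase, changed by 0.60 ± 0.12 and was lost when only these 8 arrays were fitted. The glycolysis falls numbered 2 without stressed heart 1, and 3 without stressed heart 2 or without control heart 1, 2 or 3.

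**Figure D4:**
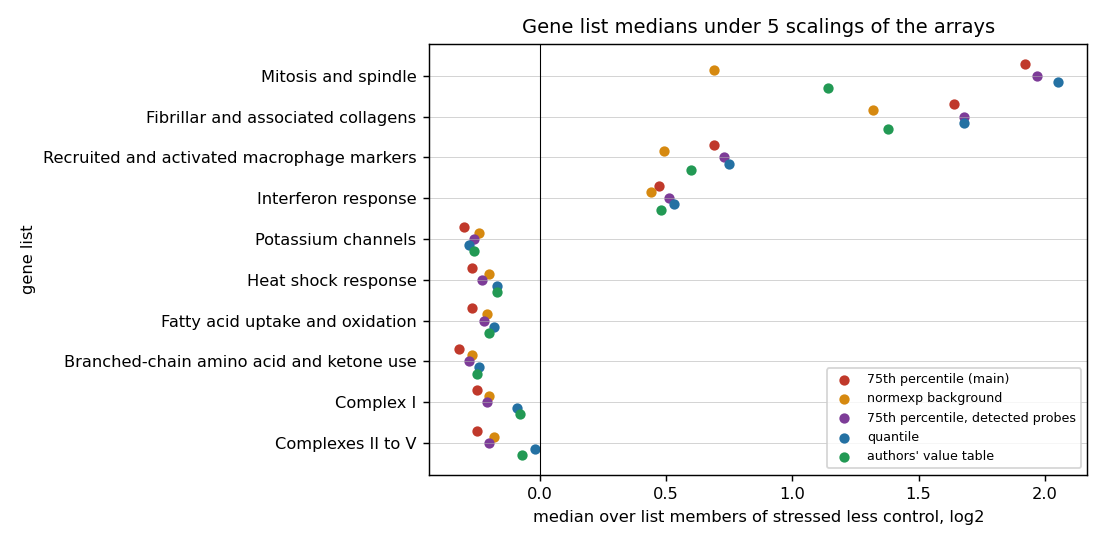
Median over the tested members of 10 gene lists of stressed less control (log2) under 5 scalings of the arrays, a colour for each. The mitosis median fell from 1.92 to 0.69 with normexp background correction and collagens stayed between 1.32 and 1.68, while complexes II to V moved from -0.25 to -0.02 under quantile normalisation, and no list changed sign.

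Some ion channel and neurohumoral genes fell, and those named here stayed called without any single heart. Potassium channels fell in 7 of 19 cases and rose in none (median -0.30, list mean difference -0.27 in slide row 1 and -0.47 in slide row 2). Kcnv2, a modifying subunit of voltage-gated channels, read -1.30, -0.76, -0.64 and -0.97 against 0.10, 0.05, 0.04 and 0.28 and changed by -1.04 ± 0.19 (adjusted p = 0.000517). Abcc8, the sulphonylurea receptor of the ATP-sensitive channel, changed by -0.53 ± 0.09 (adjusted p = 0.000211). Among adrenergic, muscarinic and angiotensin genes 6 of 28 fell and 1 rose, and leaving out any heart kept both counts within 1.5 times. Corin, the protease that activates natriuretic peptides, read 2.26, 2.33, 2.16 and 2.23 against 3.02, 2.93, 2.84 and 2.85 and changed by -0.67 ± 0.10 (adjusted p = 3.98e-05). Adcy6, an adenylyl cyclase coupled to beta-adrenergic receptors, changed by -0.41 ± 0.08, Rgs2, which damps signalling of Gq, by -0.65 ± 0.13, and Ace, the enzyme that makes angiotensin II, was the lone rise, at 0.58 ± 0.11 (adjusted p = 0.000614). Of 27 calcium cycling and sodium channel genes 3 fell and 1 rose, a share of falls near the 8.43% over all genes. Hrc, which binds calcium in the sarcoplasmic reticulum, read 7.29, 7.52, 7.92 and 7.79 against 8.26, 8.26, 8.18 and 8.13 and changed by -0.58 ± 0.10 (adjusted p = 0.000418). In slide row 1 alone, 2 hearts against 2, limma no longer called Abcc8, Adcy6 or Rgs2 (adjusted p of 0.143, 0.0689 and 0.238). In row 2 alone it no longer called Adcy6 or Ace (adjusted p of 0.052 and 0.0604).

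Genes that report stress hormones or cell stress showed no common rise. Of 24 glucocorticoid receptor targets 2 rose and 2 fell (median -0.33, against -0.12 over all genes), with 1 risen when any one of stressed hearts 1, 2 and 3 or control hearts 2, 3 and 4 was left out and 1 fallen without stressed heart 1 and 5 fallen with normexp or with only these 8 arrays fitted. Ddit4 (REDD1), a hormone-induced brake on mTOR, read 4.19, 4.11, 4.19 and 4.37 against 5.92, 5.35, 4.99 and 5.06 and changed by -1.11 ± 0.24 (adjusted p = 0.0032). Of 22 immediate early genes 2 fell (1 without stressed heart 3 or control heart 2 or 4). Klf2, a flow-responsive factor of endothelium, changed by -0.73 ± 0.15 (adjusted p = 0.00251). The clock list had 1 rise and 1 fall in 19. Its rise was absent without stressed heart 1 or 2 or control heart 2, 3 or 4, with 2 rises without stressed heart 4 or control heart 1, and its fall was absent without stressed heart 2 or 3 or control heart 3 or 4. Heat shock genes fell in 8 of 24 cases, and control heart 2 was the highest control for that list, at 0.32. Hspa1a, an inducible HSP70, read -0.39, 0.86, -0.70 and -0.44 against 1.07, 4.10, 2.60 and 1.59 and changed by -2.51 ± 0.71 (adjusted p = 0.0192), a call lost without stressed heart 1 or control heart 2. Hsph1, its nucleotide exchange partner, changed by -1.03 ± 0.31, a call lost without stressed heart 1 or 3 or control heart 2 or 3. Hsp90ab1, the constitutive HSP90, changed by -0.43 ± 0.09 and was lost in the authors' table (-0.26, adjusted p = 0.0662). The heat shock count was 2 without control heart 2, 3 without stressed heart 1 and 4 without control heart 3, under quantile normalisation, in the authors' table or with only these 8 arrays fitted.

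Of the 20 genes with an official symbol that rose most (2.80 to 5.43), 13 were not well above background on any control array and 6 belong to the lists of dividing cells. Of the 20 that fell most (-1.38 to -2.51), 12 were not well above background on any stressed array. They included Sfrp5, a secreted Wnt antagonist that read -1.0, 0.13, -0.89 and -0.53 against 1.64, 0.45, 0.78 and 1.08 and changed by -1.56 ± 0.32 (adjusted p = 0.00172), and Gm10635, a predicted gene, at -1.39 ± 0.22 (adjusted p = 0.000128). The array also carries probes for intergenic regions that may encode long non-coding RNAs. Of 3907 such regions tested 29 rose and 433 fell (median -0.27), where 5.29% of all genes tested rose and 8.43% fell. The split over all genes turned to more rises under quantile normalisation and in the authors' table. The regions were not counted under those scalings, so how far their lean downward depends on scaling was not tested. The regions named here are those of smallest adjusted p that do not overlap each other, and were so chosen after their values were seen. The plus-strand region chr17:95149413-95174473 of mm9 read -1.02, -1.47, -0.81 and -1.46 against -3.79, -3.77, -3.13 and -3.45 and changed by 2.35 ± 0.24 (adjusted p = 5.08e-07), and the plus-strand region chr9:14460976-14488051 changed by 1.80 ± 0.20 (adjusted p = 1.61e-06).

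The condition was then set against the 2 most like it, each with its own controls: 10 days of stress with the same 1 day of rest, and the same 5 days with 10 days of rest. In the first of these, 213 genes rose and 99 fell (1.13% called), and in the second 6 rose (0.0218%) and 15 fell (0.0545%), 0.0763% in all. The difference between the stress effects was tested directly. Against 10 days of stress, 64 genes had a higher effect after 5 days and 99 a lower one (0.592% of genes tested). Against 10 days of rest, 359 were higher and 325 lower (2.49%). These splits moved with scaling: the first was 59 to 13 under quantile normalisation, 61 to 50 with normexp and 135 to 50 in the authors' table, and the second 370 to 112 under quantile normalisation, 501 to 112 with the percentile over detected probes and 398 to 154 in the authors' table. Both differences use the same 8 hearts of the 5 day, 1 day condition, and slide and condition are the same factor, so a slide effect on the stress difference cannot be told apart.

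No collagen was called different between the lengths of exposure. Of 15 tested, 0 passed limma's test of the difference and 0 had an unadjusted p below 0.05, with a median change of 1.64 after 5 days and 1.20 after 10 days, where 10 rose (0.774% of all genes rose there). Col3a1 changed by 2.29 after 10 days and 2.95 after 5, Col1a1 by 2.01 and 2.53, and the fibroblast gene Cilp by 2.69 and 2.78. After 10 days of rest the collagen median was 0.41, limma called none (6 had an unadjusted p below 0.05), and 8 of 15 were higher with 1 day of rest in the test of the difference. That count was 3 without stressed heart 1 or control heart 3, 5 without stressed heart 2 and 2 without control heart 2 or 4. Among the hearts with 10 days of rest it was 3 without stressed heart 2 or control heart 1 and 2 without control heart 2. With only the arrays compared fitted it was 1, and without the 3 arrays marked by the scanner software limma called none, with 12 at an unadjusted p below 0.05.

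Some dividing-cell genes differed. The mitosis median was 1.92 after 5 days, 0.74 after 10 days of stress, where 4 rose, and 0.05 after 10 days of rest, where limma called none and 3 had an unadjusted p below 0.05. In the test of the difference, 9 of 43 mitosis genes and 4 of 32 replication genes were higher than after 10 days of stress (0.233% of all genes were higher). These counts rested on single hearts: they were 2 and 0 without stressed heart 1 or 3 or control heart 2, 2 and 1 without control heart 3 or 4, 3 and 3 without stressed heart 2, 5 and 4 without control heart 1, and 12 and 7 without stressed heart 4. In the 10 day condition they were 26 and 11 without stressed heart 1, 14 and 5 without control heart 1, and at most 4 and 1 without any other heart. With the replicate number as a block limma called none, with 31 and 18 at an unadjusted p below 0.05, and the other settings on whole arms gave 2 to 10 mitosis and 0 to 7 replication genes. Against 10 days of rest 31 and 12 were higher (1.3% of all genes). The stress effect on Kif22 was 2.22 after 5 days and 0.62 after 10, a difference of 1.59 ± 0.24 (adjusted p = 0.00586). On Cdca3 it was 3.20 and 0.74, a difference of 2.46 ± 0.40 (adjusted p = 0.0116), and on Birc5 2.37 and 0.74, a difference of 1.63 ± 0.29 (adjusted p = 0.0132; with the mean of its probes 1.47, adjusted p = 0.0558). With the replicate block the calls of Cdca3, Birc5 and Rdm1 were lost (adjusted p of 0.0622, 0.0622 and 0.0611). Fanci differed by 2.60 ± 0.34 (adjusted p = 0.00132), but with normexp background correction by 0.36 (adjusted p = 0.222). Outside the cell cycle, Slc43a2, an amino acid transporter, differed by 0.83 ± 0.14 (adjusted p = 0.012), and Rdm1, a RAD52-related gene, fell by 0.70 after 5 days and differed by -0.52 ± 0.09 (adjusted p = 0.0132).

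Against 10 days of rest, Birc5 differed by 2.47 ± 0.29 (adjusted p = 3.63e-05), Kif22 by 2.11 ± 0.24 (adjusted p = 3.41e-05), Cdca3 by 3.15 ± 0.40, Spag5 by 3.02 ± 0.40, Cenpk by 1.90 ± 0.26 and Tk1 by 1.47 ± 0.20. None of these 6 was called after 10 days of rest, where their stress effects ran from -0.28 to 0.11. Fanci differed by 3.08 ± 0.34 (adjusted p = 3.41e-05; with normexp 0.49, adjusted p = 0.11). Fanci and Spag5 had no control signal well above background in the 5 day, 1 day rest condition, so the sizes of their differences are measured values at the background, and Spag5 differed by 0.77 with normexp. Cenpk differed by 0.84 with normexp, and Pidd1, a p53-induced death domain gene, differed by 1.68 ± 0.21. Genes with a lower effect included Myom2 at -0.93 ± 0.14 (adjusted p = 0.000763), Ldhd at -0.72 ± 0.11, Ivd at -0.61 ± 0.10, Rdm1 at -0.64 ± 0.09 and Cib3, a calcium- and integrin-binding protein, at -2.05 ± 0.27 (adjusted p = 0.000165). Of the branched-chain amino acid and ketone genes 8 of 22 were lower in this difference, against 1.18% of all genes. That count was 4 without stressed heart 1 or control heart 1, 5 without control heart 2, 3 or 4, and 4 without stressed heart 3 or control heart 2 of the 10 days of rest. It was 4 under quantile normalisation and in the authors' table and 3 with only the arrays compared fitted or with the replicate block.

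Counts for these differences depended on single hearts. The count against 10 days of stress was 163 and became 34, 21 and 258 without stressed heart 1, 3 or 4 of the 5 day condition and 11, 33 and 49 without control heart 2, 3 or 4. Among the hearts of the 10 day condition it became 318, 16 and 22 without stressed heart 1, 3 or 4 and 321, 34 and 22 without control heart 1, 2 or 4. The count against 10 days of rest was 684 and became 310 and 1053 without stressed heart 1 or 4 and 434, 379 and 402 without control heart 1, 2 or 3. On the side of 10 days of rest it became 369 without stressed heart 3 and 436 and 353 without control heart 1 or 2. The genes named for a difference kept their call under each of these omissions. With the 5 day, 1 day rest hearts cut to slide row 1, limma no longer called Kif22, Cdca3, Birc5, Slc43a2 or Rdm1 against 10 days of stress. Their adjusted p ran from 0.181 to 0.191. Myom2, Ldhd and Ivd lost their calls against 10 days of rest in that fit (adjusted p of 0.0709, 0.0709 and 0.147). In row 2, Birc5 and Rdm1 lost theirs against 10 days of stress (adjusted p of 0.0544 and 0.0502).

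**Figure D5:**
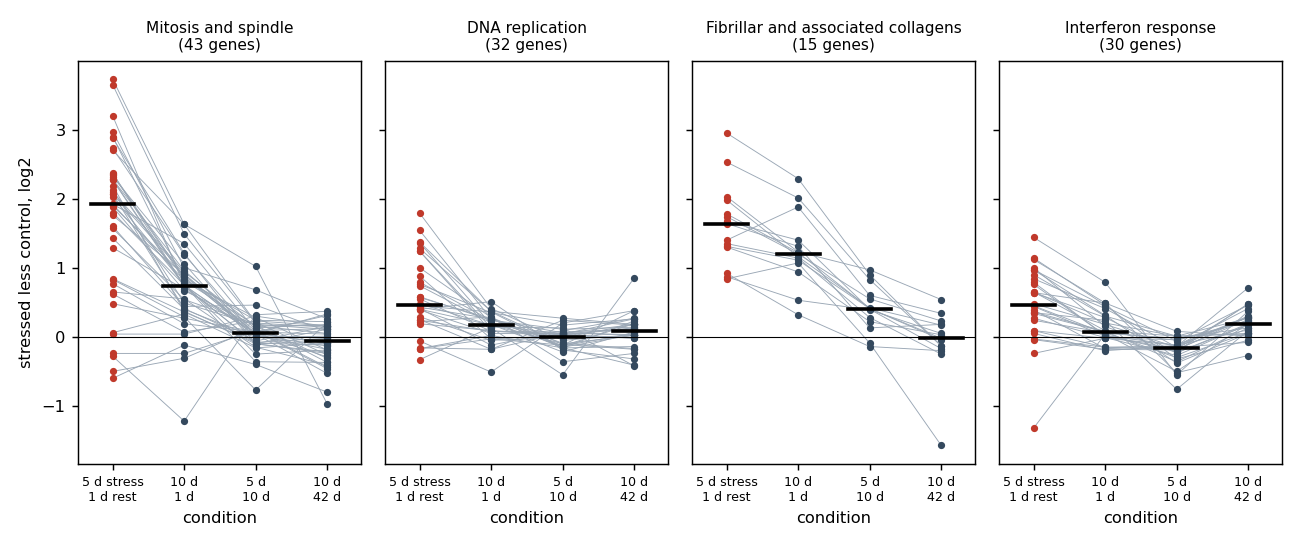
Stressed less control (log2) of each tested member of 4 gene lists in the 4 conditions, a grey line for each gene and a black bar at the median, with the 5 day, 1 day rest condition in red. Mitosis medians ran from 1.92 through 0.74 to 0.05 and -0.06, collagen medians from 1.64 through 1.20 to 0.41 and -0.02, and interferon medians were 0.46, 0.08, -0.16 and 0.19.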

How the data were processed

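Total RNA of hearts was labelled with Cy3 and hybridised to 1-colour Agilent arrays, 1 array per mouse. The deposited scanner tables hold spot intensity, extracted by the authors with Feature Extraction 10.7.3.1 per the file headers, detrended and background-subtracted. The authors' value table holds log2 values that follow the unprocessed mean signal (correlation at least 0.9995), with equal medians within a slide, and its further normalisation is not given in the sources used here.

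Processed intensities were scaled to each array's 75th percentile and converted to log2. Control spots and outlier spots were left out, probes well above background on at least 3 of 4 arrays of a group were kept, with at most 4 arrays missing, and the brightest probe stood for a gene (7331 genes had several). A single limma 3.58.1 model (R 4.3.3) fitted the means of 8 groups over 32 arrays, and genes with Benjamini-Hochberg adjusted p below 0.05 were called. Mice are replicates only as far as the labels name separate animals. Motifs were searched in the 250 bases before the start, and a seeded simulation of changed genes served as a test of the model.

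The text names, in part, the 20 largest rises and 20 largest falls with an official symbol, up to 10 called members of each list (up to 4 where fewer than 4 passed) by smallest p, and the 8 genes of smallest p in each direction for each difference. The members and lists were chosen with earlier results of these data known. Alternatives changed background correction, scaling, the filter on dim probes, the treatment of several probes, the arrays fitted, the variance prior and blocks, and left out single hearts. Fits within slide rows, without 3 arrays marked by the scanner software, without single hearts of the other conditions and without stressed hearts 1 and 3 were added after seeing the data. Deviations of same-numbered arrays correlated at -0.056 to 0.214 in this condition, -0.022 to 0.061 after 10 days of stress and -0.266 to 0.201 after 10 days of rest. In none of the 3 was every pair over 0.1, so replicate numbers were not used as pairs. Saturated spots among the gene probes numbered 0. Results on some genes that this rule names are not reported here.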

Additional observations from a re-analysis of the deposited data

Results flagged for a closer look

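Single hearts stood apart from the other 3 of their arm for 18 of 328 gene and arm groups (5.49%) and for 7 of 118 list and arm groups. A gap of this relative size arises by chance in about 1 in 20 groups. Stressed heart 1 stood apart for Cdc20 (0.52), Ccnb1 (-1.10), Loxl2 (3.50), Pfkp (2.39) and Gpx7 (0.60), in each case as the highest, and as the lowest for Rpl3l (4.13). Stressed heart 3 did so for the erythroid genes Ahsp (3.07) and Slc4a1 (3.60), and for Csf1 (2.23). Of the controls, heart 1 stood apart for Col14a1 (1.06) and Pidd1 (-2.89), heart 2 for Kif22 (-2.29), Tgfb2 (0.78), Trem2 (-0.71), S100a8 (-4.80) and Gclm (-1.35), heart 3 for Aspm (-6.26) and heart 4 for Idh3g (7.57). Among list means, relative to the mean of the controls, stressed heart 1 stood apart for cyclins and their kinases (0.73) and stressed heart 4 for neutrophil markers (0.04). Control heart 1 stood apart for collagens (0.23), fibroblast markers (0.07), complement (-0.08) and potassium channels (0.08), and control heart 2 for creatine metabolism (-0.04).

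The stress effect differed from that after 10 days of stress, by the test of the difference itself in limma, for Fanci (2.60), Kif22 (1.59), Cdca3 (2.46), Birc5 (1.63), Slc43a2 (0.83) and Rdm1 (-0.52). It differed from that after 10 days of rest for Fanci (3.08), Kif22 (2.11), Birc5 (2.47), Cdca3 (3.15), Spag5 (3.02), Tk1 (1.47), Cenpk (1.90), Pidd1 (1.68), Cib3 (-2.05), Rdm1 (-0.64), Myom2 (-0.93), Ldhd (-0.72) and Ivd (-0.61). With the replicate block the first of these differences was not called for Cdca3, Birc5 or Rdm1. Fanci and Spag5 had no control signal well above background in the 5 day, 1 day rest condition, so their sizes are measured values at the background. With normexp Fanci missed the threshold in both differences (0.36 and 0.49, adjusted p of 0.222 and 0.11), and Spag5 differed by 0.77. All values are log2 differences between the stress effects of the 2 conditions.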

How the results depend on the processing

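Of 163 called genes named here, 156 to 160 stayed called under normexp, quantile scaling, the percentile over detected probes, the authors' table, no filter and the mean of a gene's probes, 148 with only the arrays compared fitted, 155 to 162 with any single heart left out, and 134 without stressed hearts 1 and 3. The replicate block gave 3486 calls for the stress effect against 3776 and kept 160 of the 163. The value that reversed was P4ha3 (0.64 by the mean of its probes). The 3776 calls became 467 in slide row 1 alone, 1483 in row 2 alone, 982 without stressed hearts 1 and 3, and 2177 to 3829 without single hearts.

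The 163 calls for the difference from 10 days of stress became 72 under quantile normalisation, 12 with no filter, 546 with only the arrays compared fitted, 33 with the replicate block, 285 with the slide row as a block, 1 and 15 in slide rows 1 and 2 alone, 370 without the 3 arrays marked by the scanner software, and 11 to 321 without single hearts. With the replicate block, Cdca3, Birc5 and Rdm1 missed the threshold for this difference (adjusted p of 0.0622, 0.0622 and 0.0611). The 684 calls for the difference from 10 days of rest became 390 with no filter, 209 with only the arrays compared fitted, 394 with the replicate block, 18 in slide row 1 alone, and 310 to 1053 without single hearts. The cause of these shifts was not tested. The row and omission fits also hold fewer hearts. Dim probes limit the size of the largest changes, and 4 hearts an arm limit the precision of all.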

Other observations

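Several groups outside the lists above held a few changes each. Of 36 genes of antioxidant and xenobiotic defence 5 rose and 8 fell (median -0.06), with 3 rises without stressed heart 1 or control heart 2 or 4, 3 falls without stressed heart 1 and 5 falls without stressed heart 2 or control heart 1. With only these 8 arrays fitted 3 rose and 3 fell. The glutathione transferase genes Gstm1, Gstt1, Gstm2 and Gsta3 fell, Gstm1 at -0.53 ± 0.08 (limma, adjusted p = 8.29e-05). Gclm, a subunit of the enzyme that starts glutathione synthesis, rose at 0.71 ± 0.15, as did the peroxidase genes Gpx7 and Gpx8 at 0.73 ± 0.12 and 0.35 ± 0.08. Regulators of mitochondrial biogenesis fell in 6 of 16 cases (3 without stressed heart 1 or control heart 1). Ppargc1a (PGC-1 alpha), the coactivator of that programme, was at -0.50 ± 0.12 and its muscle partner Perm1 at -0.46 ± 0.09. Cytosolic ribosomal protein genes fell in 3 of 35 cases, a share near the 8.43% of all genes that fell (1 under quantile normalisation, in the authors' table or with only these 8 arrays fitted), among them the striated muscle form Rpl3l at -0.49 ± 0.10, and proteasome genes in 4 of 30 (at most 2 without any one of stressed hearts 1 to 3 or control hearts 1 to 3, and none under quantile normalisation, in the authors' table or with only these 8 arrays fitted). 

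Among growth factor, Notch and Hedgehog ligands 2 of 29 rose and 1 fell (median -0.02), where 5.29% of all genes rose and 8.43% fell. That share of rises is near the one over all genes. The rises were Ptn (pleiotrophin) at 1.54 ± 0.34 and Csf1, the growth factor of macrophages, at 0.49 ± 0.11. Of 23 angiogenic and hypoxia genes 2 rose and 3 fell (1 without stressed heart 1 or control heart 1 or 3, and none with only these 8 arrays fitted), with Vegfd at 0.67 ± 0.14, the carbonic anhydrase Car9 at 1.19 ± 0.28 and Epas1 (HIF-2 alpha) at -0.42 ± 0.10. In creatine metabolism Gatm, which makes the creatine precursor, was at 1.06 ± 0.23. In the unfolded protein response list 2 of 30 rose and 1 fell, a share of rises again near the 5.29% over all genes. Ptn was at 1.0 without stressed heart 1, and normexp gave 0.36 for Car9 and 0.42 for Gatm. With only these 8 arrays fitted the calls of Ptn, Epas1, Gpx8, Gsta3 and Gstm2 were lost, and that of Gsta3 also without stressed heart 1.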
